A study of Macaca mulatta with 6 samples.

Results

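Translation initiation and elongation factors are the proteins that load ribosomes onto mRNA and move them along it. Their transcripts were taken here as all probe sets whose platform annotation gives exactly 1 gene symbol starting with EIF or EEF and a digit, with the eIF2 kinases (symbols EIF2AK) left out. This rule found 43 of the 14133 genes named on the array, with 97 of its 52865 probe sets. Of these, 4 were array control probe sets for EEF1A1 and the other 93 covered 42 genes. A further probe set named EIF4A2 together with another symbol and was left out by the rule. The RNA came from serotonin neurons of female rhesus macaques, captured by laser from sections of the dorsal raphe nucleus, the brainstem nucleus that sends serotonin fibers to the forebrain. Each of the 6 arrays was 1 monkey. The 3 groups of 2 monkeys had been given placebo, estrogen, or estrogen and progesterone (the combined group), as steroids in capsules under the skin for 1 month. The tag Ovx, which usually stands for ovariectomy, is in the placebo titles only, and the labels give no age. The design asks how ovarian hormones alter gene expression in these neurons.

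Initiation begins when eIF2, carrying the initiator tRNA, joins the small ribosomal subunit together with eIF1, eIF3 and eIF5. The cap-binding factor eIF4E, the scaffold eIF4G and the helicase eIF4A bring this complex to the mRNA, which is scanned to the start codon before eIF5B joins the large subunit. eIF2B reloads eIF2 with GTP and is the point at which the integrated stress response slows initiation. In elongation eEF1A delivers each charged tRNA and eEF2 moves the ribosome by one codon. Neurons use the isoform eEF1A2 alongside or in place of eEF1A1.

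The arrays differed in signal. A floor was set on each array at the 95th percentile of 59 controls that have no target in the monkey, and 37.3% and 36.3% of all probe sets stood above it under placebo, 62.2% and 58.5% under estrogen, then 49.6% and 28.7% in the combined group. Both placebo arrays and combined 2 are called low-signal below, and both estrogen arrays and combined 1 high-signal. Treatment and array signal therefore cannot be told apart between placebo and estrogen, and the combined group holds 1 array of each kind. Of the serotonin neuron markers, 7 of 10 had a named probe set. FEV, a transcription factor of serotonin neurons, and GATA3 were above the floor on all 6 arrays, whereas TPH2, the enzyme that makes brain serotonin, was above it on 2 and LMX1B and HTR1A on 1 each. Markers of other cells were present: all 5 neuron markers and both named oligodendrocyte markers (MBP and CNP) exceeded the floor on every high-signal array, as did 5 of 6 astrocyte, 6 of 8 microglia and 4 of 6 endothelial markers. The summed signal of the astrocyte markers was 14264 and 14361 under placebo, 42257 and 46222 under estrogen, then 47029 and 2387 in the combined group, and that of the neuron markers was 5167 and 10509.8, 24032 and 27252, and 21059 and 1782. Both sums moved with the signal of the arrays. The serotonin neuron sum ran the other way. It was 1879 and 1666 under placebo, 1558 and 898 under estrogen, then 1412 and 2074 in the combined group. This sum holds readings below the floor, such as TPH2 at 126 and 211 under placebo and 243 on combined 2. LMX1B gave 587 of the sum on combined 2. FEV was highest on placebo 1 at 434 and lowest on estrogen 1 at 80.0, while SLC18A2 was highest on estrogen 1 at 738 and lowest on combined 2 at 47.9. The sum therefore does not show that low-signal arrays held more serotonin neuron RNA. The sums of the oligodendrocyte, microglia and endothelial markers overlapped between high-signal and low-signal arrays. The part of these sums in the results below was not tested. With whole captured samples, fewer cells of a type and less RNA per cell cannot be told apart.

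Translation factors were detected more often than the array as a whole on every array. Of the 93 probe sets, 51 stood above the floor on each placebo array (54.8%), 83 on each estrogen array (89.2%), 75 on combined 1 (80.6%) and 37 on combined 2 (39.8%). On all 6 arrays 24 were above the floor (25.8%, against 10.1% of all probe sets), and 70 cleared it on every high-signal array (75.3%, against 41.9%). Only 3 were above it on none (3.23%, against 19.5%). By gene, 38 of 42 had a probe set that cleared it on every high-signal array and 18 had one on all 6. The median signal of the 42 genes, each by its probe set with the highest mean, was 381 and 318 under placebo, 599.6 and 650.1 under estrogen, then 540.1 and 264 in the combined group. Over all 14132 named genes it ran the other way, at 219 and 221, 139 and 152, and 155 and 202. The deposited signals were scaled per array to a common mean, so a signal does not mark the same level on different arrays.

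**Figure D1:**
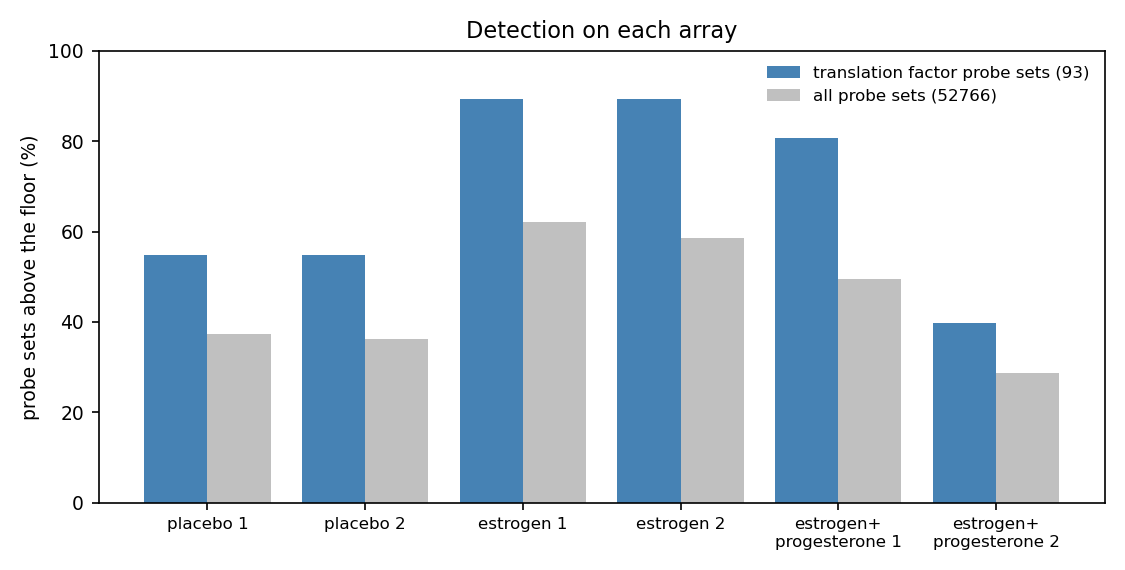
Share of probe sets above the floor of each array (y axis, percent) for the 93 translation factor probe sets (blue) and all 52766 that are not controls (grey), for the 6 arrays along the x axis. The blue bar is the taller on each array, at 89.2% on both estrogen arrays and 39.8% on combined 2 (labelled estrogen+progesterone 2).

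EEF1A1, the general form of the tRNA-delivering elongation factor, was measured by the array's own control probe sets only. Its 3′ set read 1577 and 3831 under placebo, 6714 and 15761 under estrogen, then 6074 and 535 in the combined group. Its 5′ set read 629 and 781, 388 and 13672, and 897 and 1032 on the same arrays. The estrogen 2 array was far above the others on the 5′ set, and the 3′ to 5′ ratio was 2.51 and 4.90 under placebo, 17.3 and 1.15 under estrogen, then 6.77 and 0.519 in the combined group. Both middle sets also peaked on estrogen 2, at 13740 and 15141. The same ratio for ACTB was 523 and 298 under placebo, 31.3 and 10.9 under estrogen, then 33.9 and 20.2 in the combined group. For GAPDH it was 2374 and 1413, 28.0 and 3.41, then 21.97 and 287. The ratios of both controls were largest on the placebo arrays, but their 5′ sets were below the floors of 216 and 221 there. ACTB read 23.3 and 17.5 on its 5′ set and GAPDH 31.2 and 77.8. On combined 2 the 5′ sets, at 40.3 and 263, were also below the floor of 283. The ratios of the low-signal arrays thus divide by background and do not measure the size of the 3′ excess. In a limma fit that kept these controls, all 4 EEF1A1 sets lay above 0 for estrogen minus placebo and none passed. The 3′ set differed by 1.29 ± 1.04 and the 5′ set by 1.08 ± 1.42, both with overlapping groups. The middle sets differed by 3.86 ± 1.51 and 2.30 ± 1.18, each higher on both estrogen arrays, and the adjusted p of the 4 sets ran from 0.635 to 0.843.

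**Figure D2:**
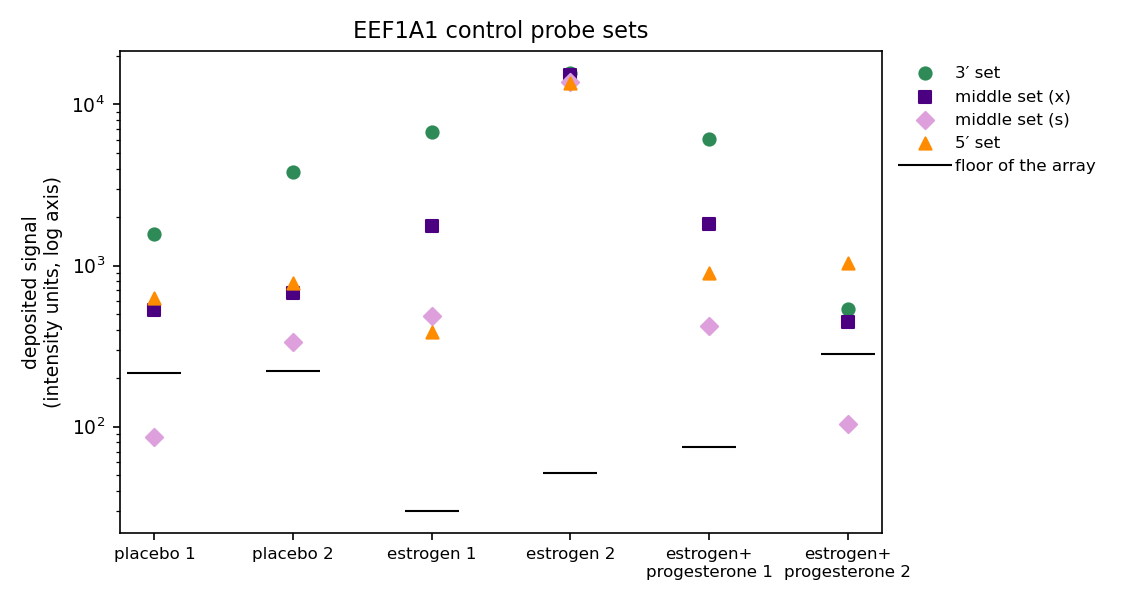
Deposited signal (y axis, intensity units, log axis) of the 4 EEF1A1 control probe sets on each of the 6 arrays, with the floor of each array as a black line. On estrogen 2 the sets lie together between 13672 and 15761, and on the other arrays the 3′ set lies above the others except on combined 2 (labelled estrogen+progesterone 2).

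Estrogen against placebo asks what estrogen alone did. Most translation factor transcripts were higher with estrogen, but none passed the test. Differences here are on quantile-normalized log2(signal + 16), each with its moderated standard error from 2 monkeys per group. The median difference over the 42 genes was 0.83, against 0.17 over all 14132 genes. Of the 42, 33 lay above 0 (78.6%, against 56.1% of all genes) and 14 were 1 or more (33.3%, against 21.9%). In limma, 0 of the 73 member probe sets that passed the filter were called at an adjusted p under 0.05, as were 0 of all 26383 tested (0%), and 5 of 73 had an unadjusted p under 0.05 (6.85%, against 7.83% of all), all 5 higher with estrogen (4.59% of all were higher at that p). On the normalized scale 19 genes were higher on both estrogen arrays than on both placebo arrays (28.0% of all genes were) and 7 were lower (20.5%). On the deposited and the normalized scale alike, 14 genes were higher without overlap (33.3% of 42, against 16.7%) and 6 were lower (14.3%, against 17.5%). The 14 were EIF1B, EIF2D, EIF2B1, EIF3D, EIF3E, EIF3F, EIF3M, EIF4A2, EIF4E3, EIF4G2, EEF1A2, EEF1D, EEF1E1 and EEF1AKMT2. The 6 were EIF2S3, EIF3A, EIF3B, EIF5A, EEF2 and EEF1AKMT3. EIF3B, at 164 and 128 under placebo and 27.4 and 20.2 under estrogen, was below the floor on all of these arrays. Its gap thus compares background readings.

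These differences cannot be told apart from array signal. Placebo and estrogen each hold arrays of 1 signal class, so a class term can be estimated only from combined 1 against combined 2. With that term the median was -0.81 (-0.27 over all genes), a value that rests on the gap between those 2 monkeys and does not separate estrogen from array signal. Of the 33 genes above 0, 32 stayed above 0 without quantile normalization, with median-centering and with scaling to the hybridization controls, the exception being EEF2KMT. All 9 genes below 0 turned above 0 under at least 1 of these 3 scalings. Without quantile normalization 44.997% of all genes lay above 0, against 80.95% of the 42. With median-centering it was 74.99% against 90.48%, and with hybridization-control scaling 95.17% against 100%. Each of the last 2 scalings moves every gene by the same amount from its value without quantile normalization. These counts, and turns of sign given for single genes below, thus partly follow a shift of the whole array.

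**Figure D3:**
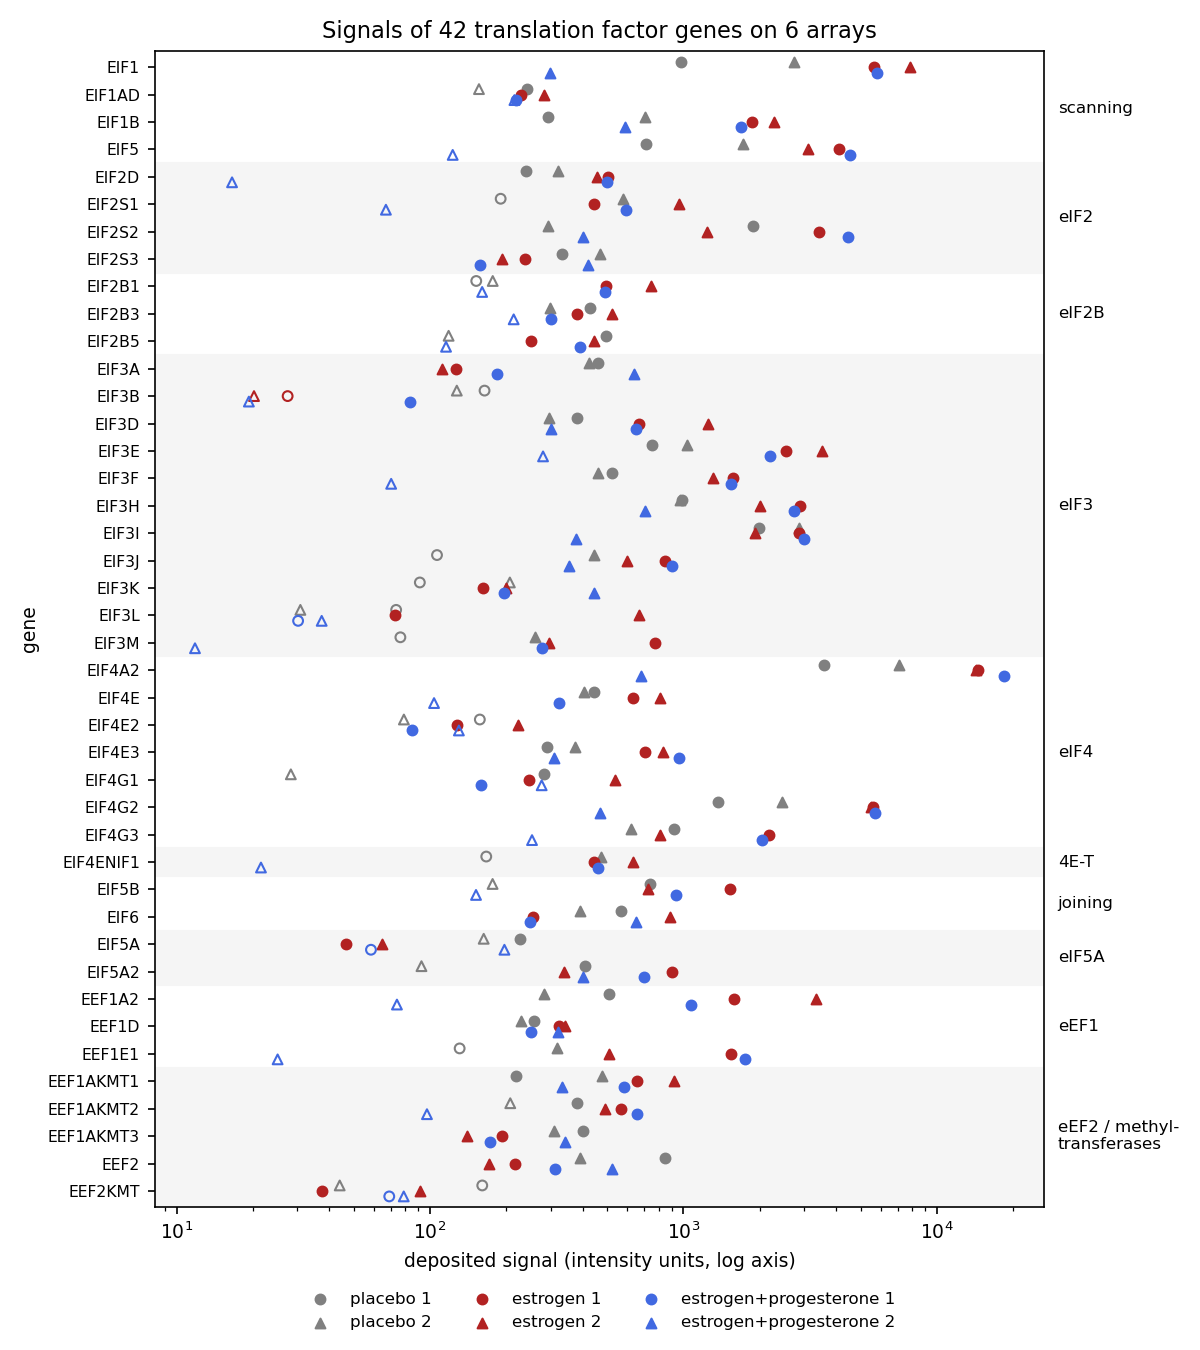
Deposited signal (x axis, intensity units, log axis) of the 42 genes (y axis, grouped by role), each by its probe set with the highest mean, with circles for monkey 1 and triangles for monkey 2 of placebo (grey), estrogen (red) and estrogen+progesterone (blue), filled above and open below the floor of the array. For many genes of the scanning, eIF3 and eIF4 groups the blue circle lies with the red points and the blue triangle at or below the grey ones, as for EIF4A2 at 18390.5 and 678.

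Among the scanning factors, all 4 genes lay above 0, with a median of 0.92. EIF1, which keeps the scanning ribosome open until the start codon is met, read 978 and 2741 under placebo, 5675 and 7837 under estrogen, then 5804 and 296 in the combined group. The high-signal arrays were all above the low-signal ones, and the estrogen difference was 0.86 ± 1.19 with an adjusted p of 0.852 in limma. Its close relative EIF1B read 293 and 703 under placebo, 1873 and 2272 under estrogen, then 1682 and 589.7 in the combined group. Here both estrogen values stood above both placebo values on either scale, by 1.38 ± 0.90. EIF5, the GTPase activator for eIF2, read 712 and 1715 under placebo, 4128 and 3093 under estrogen, then 4530.1 and 123 in the combined group, and its estrogen difference was 0.49 ± 1.37. Combined 2 was the lowest array for EIF1 and EIF5, with EIF5 below its floor there. EIF1AD, an eIF1A-domain protein, differed by 0.98 ± 0.84.

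The eIF2 subunits did not move together. EIF2S1, the alpha subunit whose phosphorylation blocks eIF2B, read 190.1 and 579.7 under placebo, 444 and 957 under estrogen, then 594 and 67.0 in the combined group, and placebo 2 lay between the estrogen arrays. EIF2S2, the beta subunit, read 1885 and 291 under placebo, 3431 and 1238 under estrogen, then 4443 and 401 in the combined group, again with overlapping groups. EIF2S3, the gamma subunit that binds GTP and the initiator tRNA, read 333 and 471 under placebo, 237 and 193 under estrogen, then 157 and 422 in the combined group. It was lower on both estrogen arrays than on both placebo arrays, by -0.73 ± 0.86 (adjusted p 0.821, limma), a direction that turned under median-centering and hybridization-control scaling. All 3 of its probe sets lay below 0, from -1.40 to -0.73. EIF2D, which can deliver the initiator tRNA without eIF2, read 240.3 and 321 under placebo, 503 and 457 under estrogen, then 499.7 and 16.6 in the combined group and differed by 0.84 ± 1.26.

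Of the 3 measured eIF2B subunits, EIF2B1 had the largest estrogen difference. This alpha subunit of the regulatory core read 152 and 177 under placebo, 495 and 742 under estrogen, then 492 and 161 in the combined group. Both placebo arrays and combined 2 were below the floor, while the 3 high-signal arrays were above it. The estrogen difference was 2.12 ± 0.93 (unadjusted p 0.0464, adjusted p 0.635, limma). Set against the placebo floors, or the placebo reading where that was higher, estrogen was at least 3.11-fold higher on normalized log2 means. Such a bound allows for the floor only, not for the spread between animals. Its second probe set was not tested and read 41.7 and 40.1 under placebo, 109 and 104 under estrogen, then 69.9 and 195 in the combined group. Both placebo readings were far below the floor there, and estrogen was at least 1.02-fold higher on the normalized scale. Its deposited estrogen signals were themselves below the placebo floors. EIF2B5, the catalytic subunit, read 493 and 118 under placebo, 249.9 and 443 under estrogen, then 392 and 116 in the combined group, with placebo 1 above both estrogen arrays. EIF2B3, its partner in the catalytic pair, differed by 0.19 ± 0.86.

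The eIF3 complex, the platform that holds the small subunit and its partners, had 11 measured genes, 8 above 0 and 3 below, with a median of 0.67. EIF3E read 749.8 and 1031 under placebo, 2543 and 3515 under estrogen, then 2187 and 279 in the combined group. The estrogen values did not overlap those of placebo, and the difference was 0.56 ± 1.01. EIF3D, a subunit that can itself bind the cap of some mRNAs, read 380.2 and 296 under placebo, 668 and 1256 under estrogen, then 653 and 299 in the combined group and differed by 1.09 ± 0.87. EIF3M read 76.4 and 260.3 under placebo, 774 and 296 under estrogen, then 276 and 11.8 in the combined group, with a difference of 1.90 ± 1.26, and EIF3F one of 0.67 ± 1.22. EIF3J, a loosely held subunit at the decoding site, was higher in all 4 of its probe sets, by 1.47 to 1.82. Placebo and estrogen overlapped on the normalized scale for its highest set and for the set at 1.82 ± 1.66. On the latter, placebo 2 read 21.6, below its floor.

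EIF3A, the large scaffold of the complex, read 459 and 424 under placebo, 126 and 112 under estrogen, then 184 and 641 in the combined group. Both estrogen arrays were the lowest, and the difference was -1.51 ± 0.96 (adjusted p 0.685, limma), turning above 0 with hybridization-control scaling. Its 4 probe sets ran from -1.51 to 2.44, so the direction of EIF3A depended on the probe set. EIF3I showed the effect of normalization. Its deposited signals of 1981 and 2863 under placebo, 2850.5 and 1922 under estrogen, then 2990.0 and 377 in the combined group overlapped between placebo and estrogen, while the normalized difference was -1.10 ± 0.94, and a second probe set gave 2.75. EIF3K read 91.2 and 207 under placebo, 162 and 199 under estrogen, then 196 and 445 in the combined group, with placebo below the floor. Estrogen was at least 1.41-fold higher on the normalized scale against the placebo floors, although the deposited signals overlapped, and its 3 probe sets ran from -1.97 to 1.16. Of the low genes, EIF3B and EIF3L did not pass the filter and were not tested. EIF3L read 73.5 and 30.8 under placebo, 72.5 and 670.5 under estrogen, then 30.2 and 37.4 in the combined group. It was above the floor on the estrogen arrays only, but estrogen 1 lay below placebo 1 in signal and below both placebo floors on the normalized scale, so the gap to placebo rested on estrogen 2.

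In the eIF4 group, 6 of 7 genes lay above 0, with a median of 0.92. EIF4A2, the brain-rich form of the helicase that unwinds the mRNA leader, read 3593 and 7073 under placebo, 14490.3 and 14247 under estrogen, then 18390.5 and 678 in the combined group. The 3 high-signal arrays were each above both placebo arrays and combined 2 was the lowest. The estrogen difference was 1.18 ± 1.12 (adjusted p 0.774, limma), and all 6 of its probe sets lay above 0, from 0.43 to 3.67. The largest came from a dim set that read 19.1 and 33.6 under placebo, 243 and 681 under estrogen, then 349 and 159 in the combined group. On that set both placebo arrays and combined 2 were below the floor, and estrogen was at least 2.43-fold higher, with a difference of 3.67 ± 0.92, an unadjusted p of 0.00264 and an adjusted p of 0.635 in limma. With array weights in limma its adjusted p was 0.0349, the only call among 73 member probe sets and one of 434 among all 26383 tested (1.645%). Another EIF4A2 set read 232 and 569.9 under placebo, 5277 and 3905 under estrogen, then 5097 and 142 in the combined group, the same pattern of high on the high-signal arrays.

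EIF4G1, the main scaffold between the cap and the ribosome, read 281 and 28.2 under placebo, 247 and 536 under estrogen, then 159 and 276 in the combined group. Placebo 1 lay between the estrogen arrays and placebo 2 was below its floor, and the difference was 2.05 ± 1.04. EIF4G2, a scaffold that lacks the eIF4E site, read 1363 and 2443 under placebo, 5604 and 5519 under estrogen, then 5707 and 469 in the combined group. Estrogen and combined 1 lay close together above placebo, but the normalized difference was only 0.42 ± 0.97, and a second EIF4G2 probe set lay at -0.61. EIF4G3, the third scaffold, read 914 and 622 under placebo, 2173 and 807 under estrogen, then 2043 and 253 in the combined group, with a difference of -0.19 ± 1.05 whose sign turned under all 3 scalings. EIF4E, the cap-binding protein, read 445 and 407 under placebo, 633 and 806 under estrogen, then 324 and 104 in the combined group and differed by 0.24 ± 0.93. Its relatives EIF4E2, a cap-binding protein linked to repression, and EIF4E3 differed by 1.40 ± 0.83 and 0.92 ± 0.88. The 4 probe sets of EIF4E3 ran from -0.14 to 2.59. EIF4E2 did not reach the floor with placebo, against which estrogen was at least 1.37-fold higher, and its deposited signals of 157 and 78.9 under placebo, 128 and 222 under estrogen, then 84.5 and 130.0 in the combined group overlapped. EIF4ENIF1, the transporter that moves eIF4E into the nucleus and represses it, differed by 0.84 ± 1.32.

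For subunit joining, EIF5B read 738 and 177 under placebo, 1529.6 and 725 under estrogen, then 938 and 152 in the combined group, with placebo 1 above estrogen 2. All 4 of its probe sets were above 0, from 1.06 to 2.35. EIF6, which holds the large subunit apart until it is ready, read 565 and 392 under placebo, 254 and 885 under estrogen, then 249 and 649 in the combined group and overlapped in every pair of groups. EIF5A, which carries hypusine and helps the ribosome past stalling peptides such as runs of proline, read 227 and 163 under placebo, 46.4 and 64.4 under estrogen, then 58.5 and 197 in the combined group. Its estrogen signals were the lower ones, but they lay above the low floors of those arrays, and the normalized difference was -0.38 ± 0.81, which turned above 0 with hybridization-control scaling. Its paralog EIF5A2 read 409 and 92.6 under placebo, 905 and 339 under estrogen, then 696 and 402 in the combined group and differed by 1.38 ± 1.02. The 4 probe sets of EIF5A2 ran from -0.95 to 1.38.

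The elongation factors did not share a direction. EEF1A2, the neuronal and muscle form of the tRNA carrier, read 508 and 282 under placebo, 1581 and 3329 under estrogen, then 1068 and 74.1 in the combined group. Both estrogen arrays and combined 1 lay above both placebo arrays, and combined 2 was below its floor. The estrogen difference was 1.87 ± 1.21, with an adjusted p of 0.692 in limma. EEF1D, a subunit of the exchange factor that reloads eEF1A with GTP, read 257 and 229 under placebo, 324 and 340.1 under estrogen, then 251 and 321 in the combined group, a narrow range, and differed by 0.83 ± 0.80. EEF1E1, a scaffold protein of the tRNA synthetase complex, differed by 1.97 ± 1.51. The median of these 3 genes was 1.87.

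EEF2, the translocating factor itself, lay on the other side. It read 848 and 391 under placebo, 216 and 171 under estrogen, then 312 and 524 in the combined group. Estrogen was lowest and placebo 1 highest, and the difference was -1.56 ± 0.90 (adjusted p 0.667, limma), turning above 0 with hybridization-control scaling. Its deposited signals, like those of EIF2S3, EIF3A and EEF1AKMT3, were higher on the low-signal arrays. The eEF1A lysine methyltransferases EEF1AKMT1, EEF1AKMT2 and EEF1AKMT3 differed by 0.99 ± 0.92, 0.88 ± 1.08 and -0.70 ± 0.82. EEF2KMT, the methyltransferase of eEF2, was not tested.

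Genes measured by several probe sets gave a check on direction. Of 22 such genes, all probe sets agreed in sign for 12 in estrogen minus placebo (54.5%, against 47.1% of all genes with several), for 5 in combined minus placebo (22.7%, against 37.9%) and for 11 in combined minus estrogen (50%, against 46.7%). The median spread from the lowest to the highest set was 1.44, 2.12 and 1.69, so probe sets of one gene differed by more than the median difference of the genes. EIF5 was above 0 in all 5 sets with estrogen (0.49 to 3.92). EIF2S2 ran from -1.72 to 0.63.

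**Figure D4:**
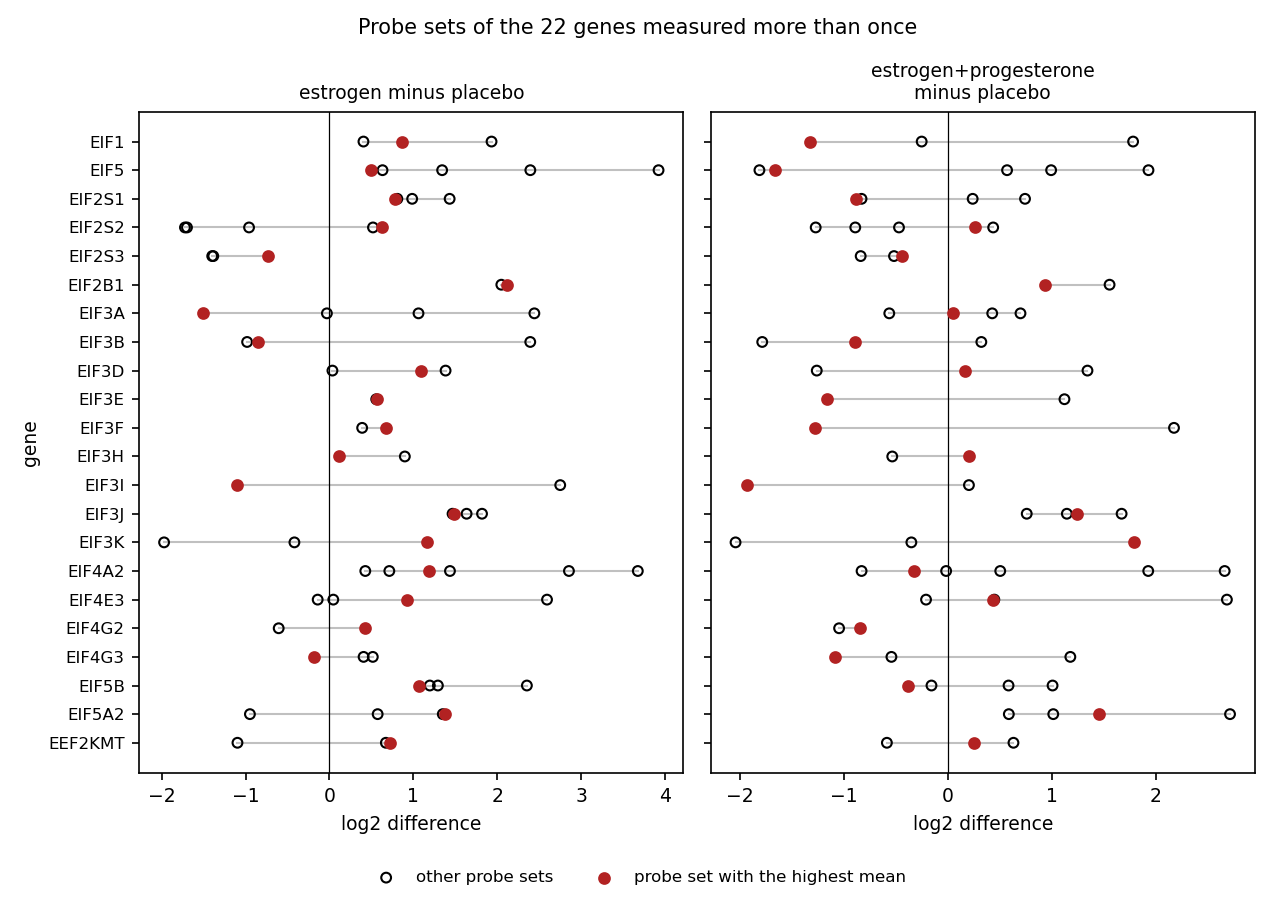
Log2 difference (x axis) of every probe set of the 22 genes with more than 1 (y axis), for estrogen minus placebo (left) and estrogen+progesterone minus placebo (right), with the probe set of the highest mean in red and the others open. EIF4A2, EIF5, EIF5B and EIF3J lie wholly above 0 on the left, and EIF3A runs from -1.51 to 2.44.

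The combined group against placebo asks what both hormones together did. Translation factors showed no common direction, and the result rested on combined 2. The median over the 42 genes was -0.33, against -0.04 over all genes, and 18 of 42 lay above 0 (42.9%, against 48.3%). In limma 0 of 73 member probe sets were called, as were 0 of 26383 (0%), and 3 of 73 had an unadjusted p under 0.05 (4.11%, against 3.30%), all 3 higher (against 2.05%). They were 1 set each of EIF4A2, EIF4E3 and EIF5A2, each with an adjusted p of 0.992, and neither placebo array exceeded its floor on any of the 3. Against the placebo floors the combined group was at least 1.82-fold higher for the EIF4E3 set and at least 2.78-fold for the EIF5A2 set. The EIF4A2 set was also below the floor on combined 2, so no fold is given for it. Without combined 2 the median was 0.80 (0.21 over all genes) and 33 of 42 lay above 0 (78.6%, against 57.7%). Without combined 1, the comparison within low-signal arrays, it was -0.67. The sign of the median also turned with median-centering (0.26, against 0.29 over all genes) and with hybridization-control scaling (0.46, against 0.50). The comparison shares its placebo arrays with estrogen minus placebo.

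Only 4 genes were higher (13.4% of all genes) and 2 lower (13.3%) without overlap on the normalized scale. EIF1B differed by 1.07 ± 0.90, with both combined values above placebo. EIF3K was at least 2.18-fold higher against the placebo floors on the normalized scale, but its other 2 probe sets lay at -2.04 and -0.35, so its direction depended on the probe set. The other higher genes, EEF1D at 0.55 ± 0.80 and EIF3H at 0.20 ± 0.80, showed smaller differences, and the second EIF3H set lay at -0.54. EIF4E differed by -1.55 ± 0.93 and was the one gene lower on the deposited and normalized scales alike (9.89% of all genes were), at 324 and 104 against 445 and 407. Its combined 2 reading was below the floor of that array, and without combined 2 the EIF4E difference was -0.53. No gene was higher on both scales (7.44% of all genes were). EIF3I differed by -1.93 ± 0.94, with its second set at 0.20. The signs of EIF1B and EIF4E, each with 1 probe set, held under the 3 scalings. EIF3J was above 0 in all 4 of its probe sets, from 0.76 to 1.67.

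**Figure D5:**
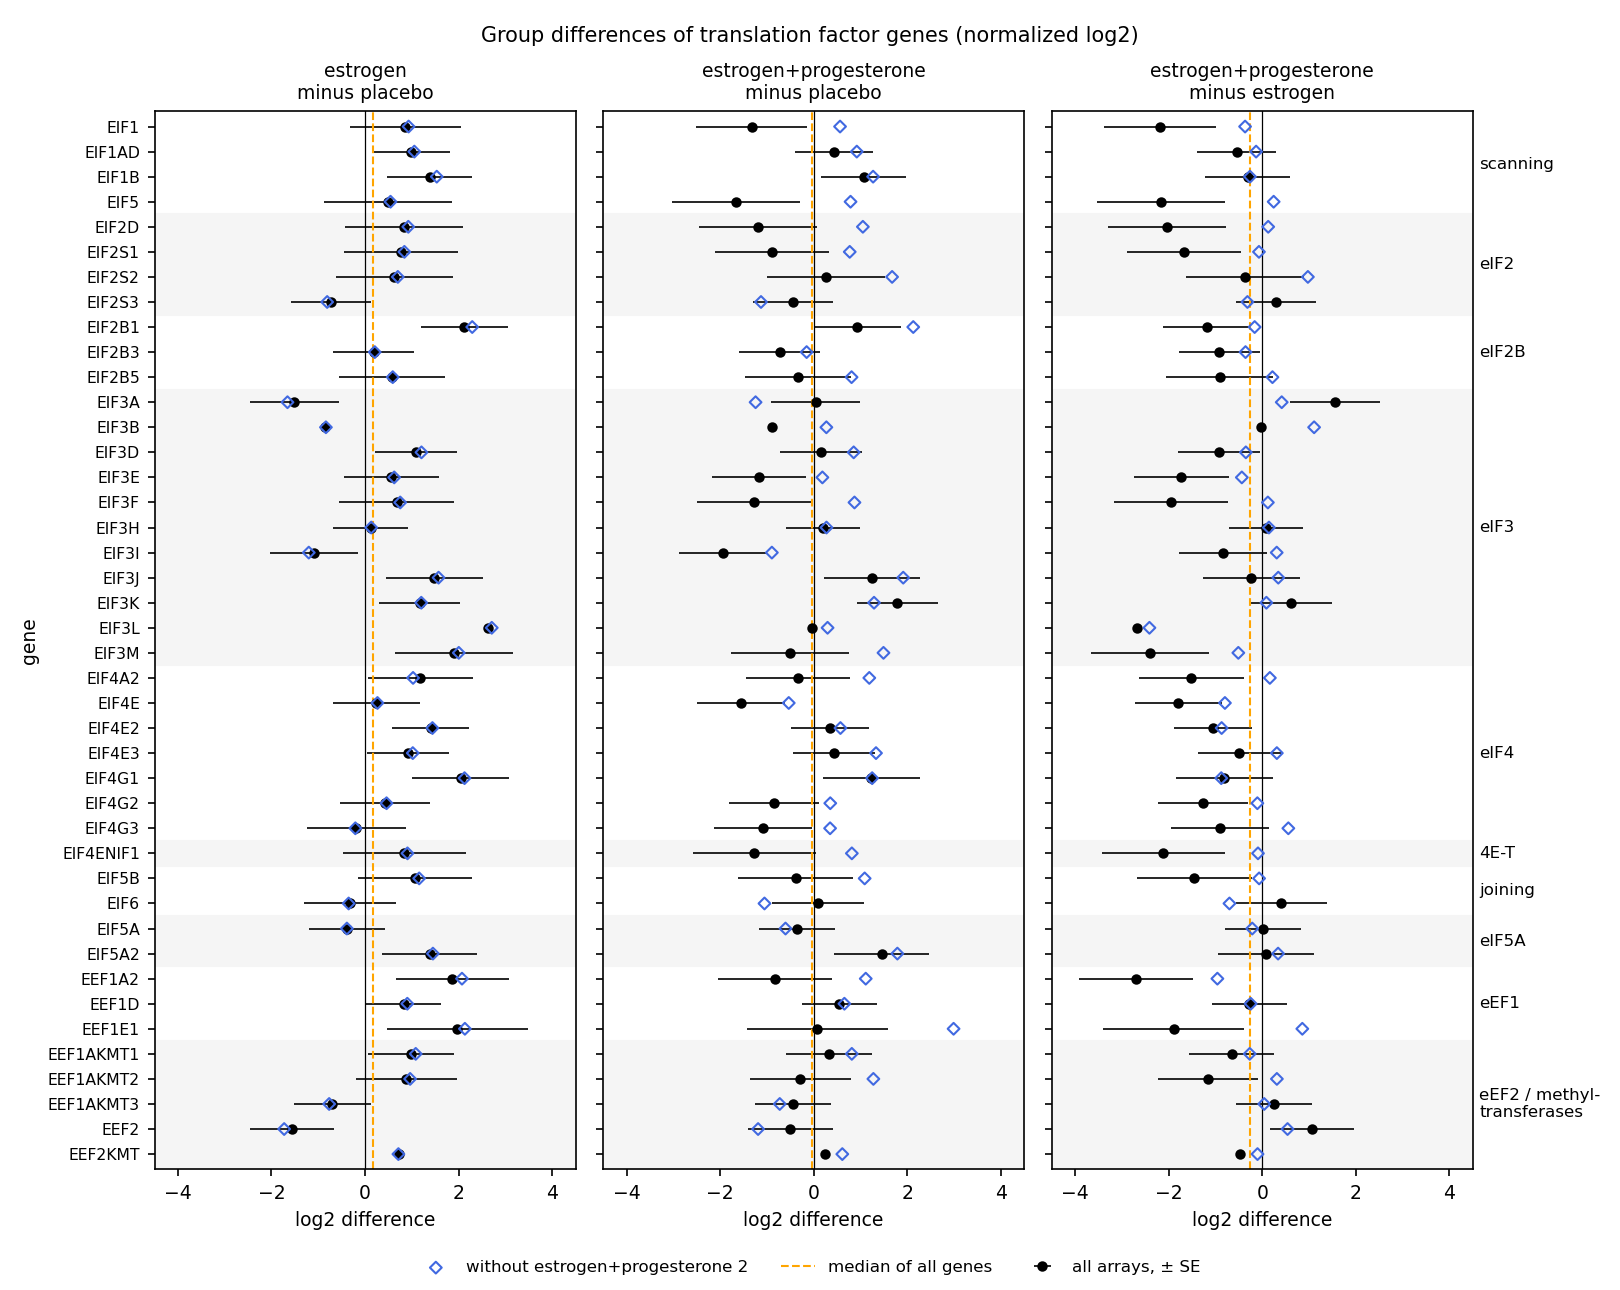
Log2 differences (x axes, normalized log2) of the 42 genes (y axis, grouped by role) for the 3 comparisons, with black points for all arrays, bars for ± SE (none for the 3 genes not tested), blue diamonds without combined 2 (labelled estrogen+progesterone 2) and a dashed line at the median of all genes. In the right panel most black points lie left of 0, with a median of -0.91, and most blue diamonds lie near 0, with a median of -0.08.

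The combined group against estrogen asks what progesterone added. Most translation factors were lower in the combined group, and this too rested on combined 2. The median was -0.91, against -0.26 over all genes, and 9 of 42 lay above 0 (21.4%, against 40.5%), the other 33 below. Limma called 0 of 73 member probe sets and 0 of 26383 in all (0%), and 0 of 73 had an unadjusted p under 0.05 (1.76% of all did). Without overlap on the normalized scale, 12 genes were lower (17.6% of all genes) and 3 higher (15.5%). On both scales 9 were lower (21.4%, against 11.0%) and 2 higher (4.76%, against 14.3%). The estrogen arrays are those of estrogen minus placebo. Of the 33 genes below 0, 31 stayed there under the 3 scalings, and all 9 above 0 turned under at least 1. Without quantile normalization 52.4% of all genes lay above 0, against 19.0% of the 42. With median-centering it was 28.3% against 7.14%, and with hybridization-control scaling 6.69% against 0%. These counts thus partly follow a shift of the whole array.

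EEF1A2 had the widest tested gap between these groups among the 42 genes, at -2.70 ± 1.21 (adjusted p 0.799, limma), with 1068 and 74.1 against 1581 and 3329. EIF1 differed by -2.19 ± 1.19, EIF4E by -1.79 ± 0.93, EIF3E by -1.73 ± 1.01 and EIF4E2 by -1.05 ± 0.83. All 5 were lower on both combined arrays on the normalized scale. Except for EIF1, each was below the floor on combined 2. The deposited signals of EIF1 overlapped, since combined 1 at 5804 lay between the estrogen arrays, and so did those of EIF4E2, with combined 2 at 130.0 above estrogen 1 at 128. The second EIF3E set lay at 0.56, opposite in sign. EEF2 and EIF3A were higher, by 1.06 ± 0.90 and 1.55 ± 0.96, and both turned below 0 with hybridization-control scaling. The third higher gene, EIF3K, differed by 0.62 ± 0.87, with its 3 probe sets from -1.63 to 1.62.

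The combined monkeys differed most over these genes. The median absolute gap between replicates was 2.12 for the 42 genes in the combined group (1.36 over all genes), against 0.80 with placebo and 0.39 with estrogen, and 35 of 42 were lower on combined 2 (59.4% of all genes were). Without combined 2, which leaves the high-signal arrays for this comparison, the median was -0.08 (0.03 over all genes) and 19 of 42 lay above 0 (45.2%, against 52.7%). EEF1A2 then stood at -0.96, EIF4E at -0.80, EIF1 at -0.37 and EIF4A2 at 0.16. Without combined 1 the median was -1.46, and limma called 17 member probe sets, 2 higher and 15 lower, with 13.6% of all probe sets called. That fit has 1 combined array, assumed to vary like the others. The 17 included EEF1A2 at -4.33, EIF5 at -4.30, EIF4A2 at -3.28 and EIF4E at -2.74. They also held EIF2S2 sets at 4.47 and -3.38, opposite in sign, and EIF3A at 2.53.

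By role, combined minus estrogen had medians of -1.35 for scanning factors, -1.01 for eIF2, -0.92 for eIF2B, -0.83 for eIF3, -1.05 for eIF4, -1.89 for eEF1 and 0.05 for eIF5A. Without combined 2 these were -0.20, 0.03, -0.16, 0.12, -0.10, -0.25 and 0.06. EIF4ENIF1 stood at -2.11 and, without combined 2, at -0.09.

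Other genes of translation were taken from lists. Among 17 other cytosolic translation genes, 9 lay above 0 with estrogen and the median was 0.11. FMR1, an RNA-binding repressor of synaptic translation, had the smallest p of that list. It read 116 and 189 under placebo, both below the floor, and 1251 and 765 under estrogen, at least 4.31-fold higher against the placebo floors (adjusted p 0.635, limma). Mitochondrial translation factors had 7 of 9 above 0 (median 0.54) and tRNA synthetases 9 of 13 (median 0.35). MARS1, the methionyl-tRNA synthetase, read 108 and 161 under placebo, both below the floor, and 259.8 and 273 under estrogen, at least 1.80-fold higher against the placebo floors (adjusted p 0.648, limma). Of the kinases that control translation, 9 of 12 lay above 0, with a median of 0.75, and EIF2AK3, the kinase of eIF2 in endoplasmic reticulum stress, read 22.7 and 15.1 under placebo, both below the floor, and 225 and 196 under estrogen. Set against the placebo floors on the normalized scale, estrogen was at least 1.54-fold higher for EIF2AK3, with an adjusted p of 0.635 in limma. On the deposited scale its estrogen 2 signal lay below both placebo floors (216 and 221). Integrated stress response targets had 5 of 9 above 0 (median 0.21). In combined minus placebo the medians of these 5 lists were -0.41, -0.0033, -0.28, -0.30 and -0.14, and in combined minus estrogen they were -0.61, -0.55, -0.79, -0.85 and -0.32. No gene of these lists passed limma at an adjusted p under 0.05 in any comparison, the smallest being 0.635. Of 6 translation factors whose mRNAs carry a terminal oligopyrimidine tract, the leader motif that couples translation to growth signals, 5 lay above 0 with estrogen (median 0.62), and the medians of the other comparisons were -0.66 and -0.9998.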

How the data were processed

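The authors deposited 1 linear intensity per probe set and array, scaled per array to a trimmed mean near 200, as the values show. Which software summarized the probes is not given in the sources used here. Titles gave the groups, 2 monkeys each, with 1 array per monkey, so the number of arrays limits the precision.

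Probe sets were named from the platform annotation, with symbols updated through the RefSeq gene table. Of 93 member probe sets, 1 had a gene number that table does not hold. No sequences are shown. Intensities were taken to log2 after adding 16, which understates changes of low signals, and quantile normalized. Control probe sets, EEF1A1's among them, were left out and kept only in a fit added after seeing the data. The test took probe sets whose mean reached the 50th percentile (6.81), 26383 in all and 73 of 93 members. Just inside were sets of EIF4E3 and EIF2S1 (both 6.87), and just outside sets of EIF3D (6.74) and EIF3K (6.72). In limma 3.58.1 (R 4.3.3) each group had one mean, with moderated variances, 3 residual degrees of freedom, two-sided p-values and Benjamini-Hochberg adjustment over all probe sets tested. The median standard error of a difference was 0.945. An exact permutation test of 2 against 2 cannot go below 0.333, so none was used. The script was tested on simulated data.

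Each gene was represented by its probe set with the highest mean, passed filter or not. Named were 28 core factors, of which 19 had a probe set besides EEF1A1 with its controls (EIF1AX, EIF4A1, EIF4H, EIF4EBP1, EIF4EBP2, EEF1B2, EEF1G and EEF2K have no probe set named here), and, with none past the threshold, genes with a log2 difference of 1 or more and groups that do not overlap, by smallest unadjusted p, up to 10 per direction. Other members were named to account for each role, after their values were seen. Of each further list, up to 2 genes with the smallest p could be named. The members and the 22 lists were chosen with earlier results of these data known. Same-numbered samples were not taken as pairs.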

Additional observations from a re-analysis of the deposited data

How the results depend on the processing

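The member gene median for estrogen minus placebo, 0.83, was 2.30 with median-centering, 3.45 scaled to hybridization controls and -0.81 with signal class as a covariate, and ran from 0.58 to 0.90 over arrays left out. Its member probe sets called were 0, and 1 of 73 with array weights, where 1.645% of all probe sets tested were called. The member gene median for estrogen+progesterone minus placebo, -0.33, was 0.26 with median-centering and 0.46 scaled to hybridization controls, and ran from -0.67 to 0.80 over arrays left out, 0.80 without combined 2. The member gene median for estrogen+progesterone minus estrogen, -0.91, was -1.63, -2.57 and -0.071 under median-centering, hybridization-control scaling and signal class, and ran from -1.46 to -0.079 over arrays left out. Its member probe sets called ran from 0 to 17, with 17 without combined 1. Over all genes, median-centering and hybridization-control scaling gave medians of 1.03 and 2.18 for estrogen minus placebo. They gave 0.29 and 0.50 for estrogen+progesterone minus placebo, then -0.72 and -1.67 for estrogen+progesterone minus estrogen. With signal class the all-gene median was -0.27 for estrogen minus placebo and 0.03 for estrogen+progesterone minus estrogen. The class term is estimated from the combined arrays alone. The cause was not tested. Other settings kept each median within the spread of 0.576 (pooled SD of the per-array medians) and each count at 0: offsets 1 and 64, no quantile normalization, filters, a trended prior, 2 groups alone and the mean over a gene's probe sets.

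Same-numbered arrays did not deviate together (r from -0.06 to 0.08), so the numbers do not pair the monkeys. With the replicate number as a block the called counts stayed at 0 and the medians at 0.83, -0.33 and -0.91.

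Of 81 differences of 27 named genes, 24 kept their sign under all alternatives and 43 when any 1 array was left out. The rest changed sign at least once, and none of those was past the threshold in the reported fit. Floors of 216, 221 and 283 on the low-signal arrays, against 29.99, 51.6 and 74.9 on the others, limit what low genes show there.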
